A study of Mus musculus with 6 samples.

Results

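Nmrk2 and Art1 encode a pair of muscle enzymes that make or use nicotinamide adenine dinucleotide (NAD), and in the neonatal right ventricle (RV) under pressure overload their RNA levels moved in opposite directions. They are 2 of the 617 genes in the deposited table, found there by gene symbol, and both were chosen with their difference between the groups already known. Their levels are therefore given as a description with no test. In banded hearts the mean level of Nmrk2 was 13.9 times that of sham hearts, while the mean level of Art1 was 11.5% of it.

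The labels give RV tissue of wild-type C57/BL6J mice in both groups, and the methods say male or female; the extraction text of the labels speaks of a rat, while organism, strain and genome build are those of the mouse. In pulmonary artery banding (PAB), the pulmonary artery is tied against a needle that is then withdrawn, so that the RV pumps against a narrowed outlet; the sham group had the operation without the band. Surgery was done at postnatal day 1 and tissue was taken at postnatal day 7, and 3 sham and 3 PAB libraries were sequenced. Nothing in the labels or the methods says whether a library is 1 mouse or several, so the spread between libraries may be technical in part.

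NAD is the redox carrier of energy metabolism and is also consumed by enzymes that split it. Nmrk2, nicotinamide riboside kinase 2, phosphorylates the vitamin B3 form nicotinamide riboside to nicotinamide mononucleotide, which is then joined to ATP to give NAD. It is best known from skeletal muscle and from stressed heart muscle, and was also described as a muscle protein that binds an integrin. Art1 is an arginine-specific ADP-ribosyltransferase, anchored to the outer face of the muscle cell membrane, that splits NAD and attaches its ADP-ribose part to other proteins, among them an integrin of muscle. NAD thus stands at the end of the Nmrk2 route and at the start of the Art1 reaction.

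Nmrk2 (ENSMUSG00000004939) lies on the minus strand at chr10:81198170-81202051 of GRCm38, with 1 annotated transcript of 7 exons, 1854 exonic bases and a coding length of 585 bases. Art1 (ENSMUSG00000030996) lies on the plus strand at chr7:102101743-102113933, with 3 transcripts, of which 1, with 5 exons, codes for protein over 975 bases. Since both genes moved strongly, the 250 bases before their starts in the RefSeq promoter table (GRCm38.p6) are shown, 5′ to 3′ on the strand of the gene, with TATAAA in capitals. Nmrk2 is read from chr10:81202038-81202287, minus strand, and Art1 from chr7:102101493-102101742, plus strand.
Nmrk2: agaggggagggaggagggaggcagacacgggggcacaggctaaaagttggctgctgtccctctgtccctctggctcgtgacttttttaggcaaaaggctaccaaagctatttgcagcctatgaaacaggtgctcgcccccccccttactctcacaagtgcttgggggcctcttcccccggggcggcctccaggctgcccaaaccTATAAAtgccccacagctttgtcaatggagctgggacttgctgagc
Art1: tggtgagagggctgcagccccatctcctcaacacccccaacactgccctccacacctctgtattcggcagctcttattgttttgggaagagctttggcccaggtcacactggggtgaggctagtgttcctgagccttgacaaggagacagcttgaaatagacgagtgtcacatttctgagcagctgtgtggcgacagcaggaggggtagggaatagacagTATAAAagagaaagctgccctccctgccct

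Both windows held TATAAA on the strand of the gene, a run chosen after the sequences were read. Among all 32851 promoter windows of this length, 7.59% held it. The run began 46 bases before the RefSeq start of Nmrk2, and 32 bases before its GENCODE start, which lies further upstream. In Art1 it began 30 bases before the start in both annotations. The E-box CANNTG, read on both strands, was found at 2 places in Nmrk2, 125 and 97 bases before the start, and at 1 place in Art1, 70 bases before it, and 66.2% of all windows held one. CATTCC (the M-CAT element, in 12.6% of windows), ACGTG (16.6%), the CArG box (1.47%) and the MEF2 site (2.92%), each read on both strands, were in neither window. GC content was 58.8% for Nmrk2 and 54.4% for Art1, against a median of 52.4% over all windows. These matches are letters in a window and no measure of binding.

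The deposited values, called normalized reads here, are counts of reads after division by a size factor for each library, and the size factors lay between 0.939 and 1.07. The table holds selected genes, with 290 higher and 327 lower in PAB and an absolute log2 ratio of group means of at least 1.00, so the 301448 to 659521 reads that it holds per library are not the depth. With limma on log2(value + 1), 100% of the listed genes passed a Benjamini-Hochberg adjusted p under 0.05. Since the table was selected on the same contrast in the same libraries, that share, and each adjusted p given here for other genes, only sets a difference beside the spread of the libraries and is no independent evidence.

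Nmrk2 stood at 866.3, 746.3 and 554.8 normalized reads in sham replicates 1 to 3, and at 10869.5, 11691.7 and 7651.3 in PAB replicates 1 to 3. Every PAB library lay far above every sham library, and in both groups replicate 3 was the lowest. The sham mean was 722.5 ± 157 and the PAB mean 10071 ± 2135 normalized reads (SD, n = 3 per group), a log2 fold change of 3.80 with a standard error of 0.27 in limma. The lowest PAB library was 8.83 times the highest sham library. All PAB values lay above all sham values in 275 of the 290 genes that were higher in PAB, which is 44.6% of all listed genes. By the size of its log2 fold change, Nmrk2 ranked 12 of the 290 genes that were higher in PAB, and by the gap between the groups it ranked 10.

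Art1 showed the opposite pattern, with 281.8, 375.9 and 231.8 normalized reads in sham replicates 1 to 3 and 24.5, 33.7 and 43.7 in PAB replicates 1 to 3. Each PAB library was below each sham library, as in 324 of the 327 genes that were lower in PAB (52.5% of all listed genes). The mean was 296.5 ± 73.2 normalized reads in sham and 34.0 ± 9.61 in PAB (SD, n = 3 per group), a log2 fold change of -3.10 with a standard error of 0.31. The lowest sham library was 5.30 times the highest PAB library, which ranked 14 among the 327 genes that were lower in PAB, while the log2 fold change ranked 17.

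**Figure D1:**
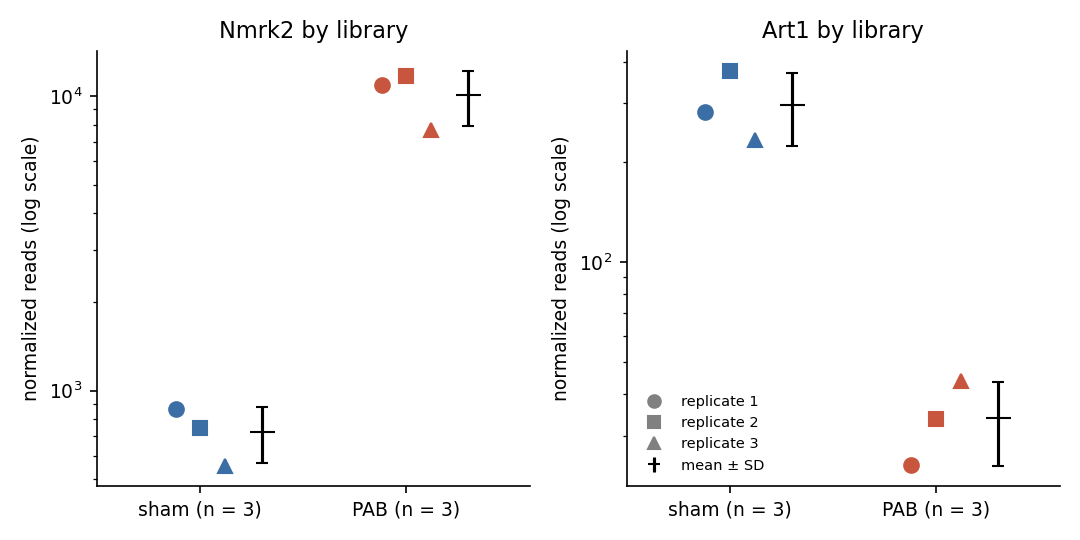
Normalized reads (log axis, with its own range in each panel) of Nmrk2 and Art1 in each of the 3 sham and 3 PAB libraries; bars give the mean ± SD and marker shapes the replicate number. The Nmrk2 values lie between 554.8 and 866.3 in sham and between 7651.3 and 11691.7 in PAB, and the Art1 values lie between 231.8 and 375.9 in sham and between 24.5 and 43.7 in PAB.

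Counting error weighed differently on the 2 genes. With 1 step of the values taken as 1 read, the PAB values of Nmrk2 rest on 7702 to 11789 reads and its sham values on 529 to 916. The PAB values of Art1 rest on 23, 34 and 44 reads in replicates 1 to 3, with 95% exact Poisson intervals of 14.6 to 34.5, 23.5 to 47.5 and 32.0 to 59.1 that cover counting error only. The order of the PAB libraries for Art1 thus rests on small counts. All 3 intervals stand clear of that of its lowest sham library, 221 reads with an interval of 193 to 252.

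Per length, Nmrk2 was the more abundant of the pair in both groups. In sham it had 389.7 ± 84.7 normalized reads per kb of exon and Art1 105.6 ± 26.1 (SD, n = 3), which ranked 61 and 167 among the 616 genes with a length. In PAB it had 5432 ± 1152 and ranked 10, whereas Art1 had 12.1 ± 3.42 and ranked 429. Within a library, where the size factor cancels out, the level of Nmrk2 per kb was 4.66, 3.01 and 3.63 times that of Art1 in sham replicates 1 to 3. In PAB replicates 1 to 3 the ratio was 672.3, 525.3 and 265.2. The mean ratio was 3.76 ± 0.83 in sham and 487.6 ± 206 in PAB (SD, n = 3). The length used for Art1 was 2809 bases over all its transcripts, while its transcript that codes for protein has 1425. With a shorter length its level per kb would be higher, and the ratios lower in both groups. The means of the per-library log2 ratios differed by 6.94, a value that no scaling of the libraries can alter.

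**Figure D2:**
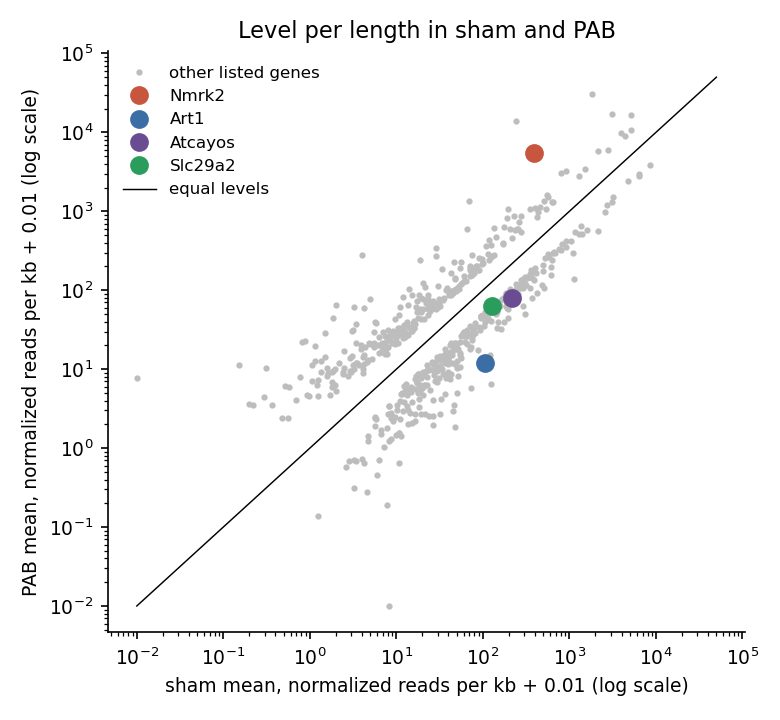
Mean level in PAB against mean level in sham, both as normalized reads per kb of exon plus 0.01 on log axes, for the 616 listed genes with a length, with equal levels on the line. Nmrk2 (389.7 in sham, 5432 in PAB) lies above the line and Art1 (105.6 and 12.1) below it; few genes lie near the line because the table holds only genes selected for a difference.

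The size of the 2 changes, unlike their ratio, rests on the scaling. When the deposited size factors were replaced by median-ratio scaling, which centres the libraries on the genes of the table, PAB shifted by 0.59 on the log2 scale against sham, and Nmrk2 then gave 4.39 and Art1 -2.51. With that scaling 290 genes were called higher and 188 called lower at an adjusted p under 0.05 in limma, in place of 290 and 327. Neither member turned its direction. In bulk tissue, fewer cells of a type and less RNA per cell cannot be told apart, and this holds for both genes.

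Among the PAB libraries Nmrk2 did not follow the order of most increased genes. Replicate 1 was the highest PAB library in 252 of the 290 genes that were higher in PAB and replicate 2 in 23 of them, Nmrk2 included. The full order of Nmrk2, replicate 2 over 1 over 3, was found in 17 of the 290. Its highest PAB library was 1.53 times its lowest, against a median ratio of 2.17 over those genes, and ranked 48 from the smallest. In sham the same ratio was 1.56, against a median of 1.43 over the 276 genes with no sham value at 0. Nmrk2 thus varied between PAB libraries about as much as between sham libraries, with an SD of log2(value + 1) of 0.33 in each group.

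For Art1, the order in PAB, replicate 3 over 2 over 1, rests on 23 to 44 reads. It was found in 137 of the 327 genes that were lower in PAB, and replicate 1 was the lowest PAB library in 192 of them. Its highest PAB library was 1.78 times its lowest, against a median of 1.67 over the 314 genes with no PAB value at 0. In sham its ratio of 1.62 stood above the median of 1.38 over the 327 genes, and sham replicate 3, its lowest, was the lowest sham library in 136 of them.

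**Figure D3:**
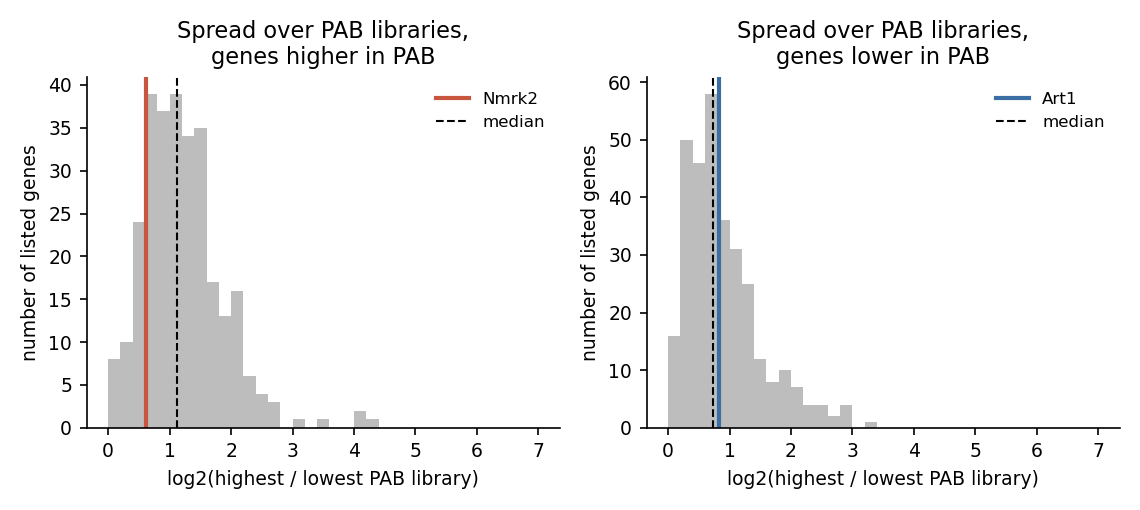
Number of listed genes by the log2 ratio of their highest to their lowest PAB library, for genes higher (left) and lower (right) in PAB with no PAB value at 0. The solid line marks the member and the dashed line the median: Nmrk2, with a ratio of 1.53, lies left of the median of 2.17, and Art1, with 1.78, near the median of 1.67.

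Likeness of pattern was measured as the root mean square difference, over the 6 libraries, of log2(value + 1) minus its sham mean. Nearest to Nmrk2 was Acta1, the skeletal muscle alpha-actin that the fetal heart also uses, at a distance of 0.42, against a median of 1.70 over the other 289 genes higher in PAB. Acta1 had 2978, 2462 and 2917 normalized reads in sham replicates 1 to 3 and 61076, 34096 and 44652 in PAB replicates 1 to 3, so its highest PAB library was replicate 1 and not replicate 2. Next came the unnamed genes 4833412C05Rik (0.43) and 5830418P13Rik (0.51), Col8a1, a chain of short-chain collagen VIII (0.51), and Xirp2, an actin-binding protein of the intercalated disc (0.56). 5830418P13Rik was near 0 in sham, at 1.05 to 3.74 normalized reads, against 53.3 to 76.4 in PAB, so its place in this order rests on the pseudocount of 1.

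Nearest to Art1 was Ret, a receptor tyrosine kinase for ligands of the GDNF family, at a distance of 0.24, against a median of 1.23 over the other 326 genes lower in PAB. Ret had 149 to 173 normalized reads in sham and 10.7 to 20.8 in PAB. It was followed by Aqp4, a water channel (0.29), with 609 to 622 in sham and 62.5 to 97.4 in PAB, and by Gm10635 (0.42), Xpnpep2, a membrane aminopeptidase (0.42), and Ubxn10 (0.42). Gm10635 stood at 0 to 1.99 in PAB, so its place too rests on the pseudocount. Likeness over 6 libraries of 2 groups is mostly likeness of the fold change, and leaving out 1 library kept between 5 (without sham replicate 2) and 9 of the 10 genes.

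**Figure D4:**
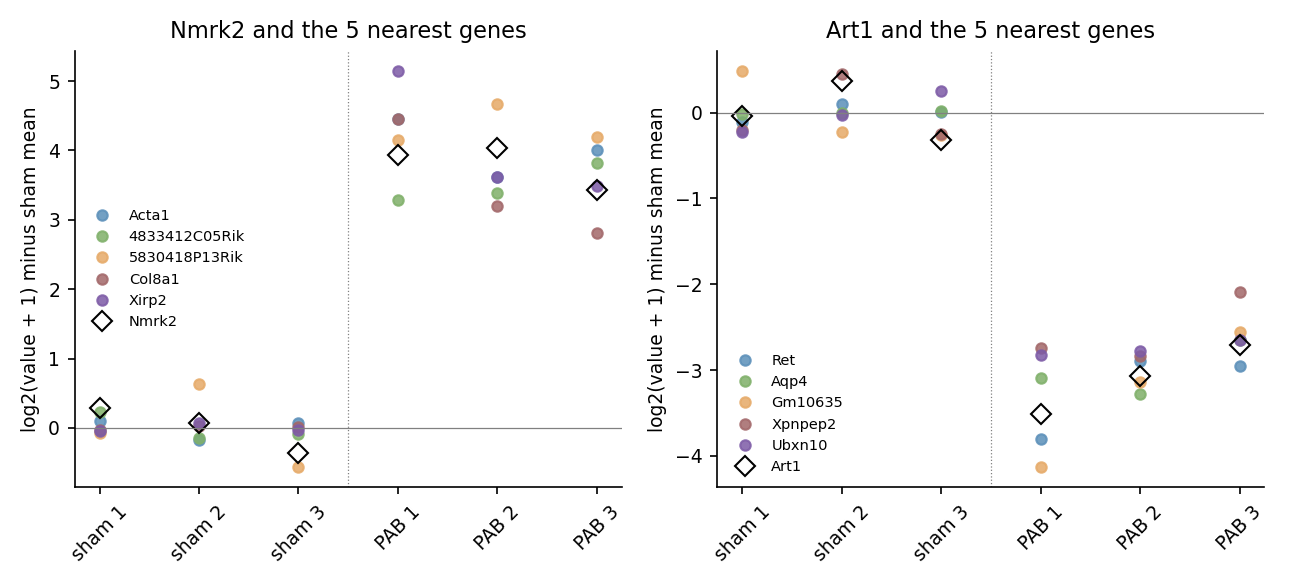
log2(value + 1) minus its sham mean, in each of the 6 libraries, for each member (open diamonds) and its 5 nearest genes (filled circles). The members' sham values lie around 0; in PAB, Nmrk2 lies below Xirp2 and Col8a1 in replicate 1 and above both in replicate 2, and Art1 runs close to Ret and Aqp4.

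The annotation places another gene over Nmrk2. Atcayos, an antisense non-coding gene on the plus strand at chr10:81194609-81210877, spans all of Nmrk2, and their exons share 270 bases at the 3′ end of Nmrk2 (chr10:81198170-81198439), which is 14.6% of the Nmrk2 exons, none of it coding. Atcayos was itself listed, with 960.9, 750.9 and 1122 normalized reads in sham replicates 1 to 3 and 295.0, 348.1 and 402.3 in PAB replicates 1 to 3. It thus moved against Nmrk2, with a log2 fold change of -1.43 (SE 0.25, limma adjusted p = 0.000909), or -0.84 with median-ratio scaling. All its PAB values lay below all its sham values, as in 324 of the 327 genes that were lower in PAB. Whether reads were counted by strand is not given in the sources used here, so reads in the shared 270 bases may belong to either gene. Nmrk2 also shared stretches of 102 to 143 bases, at 95% identity or more, with transcripts of 7 further genes, and how the counting treated reads there was not tested.

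**Figure D5:**
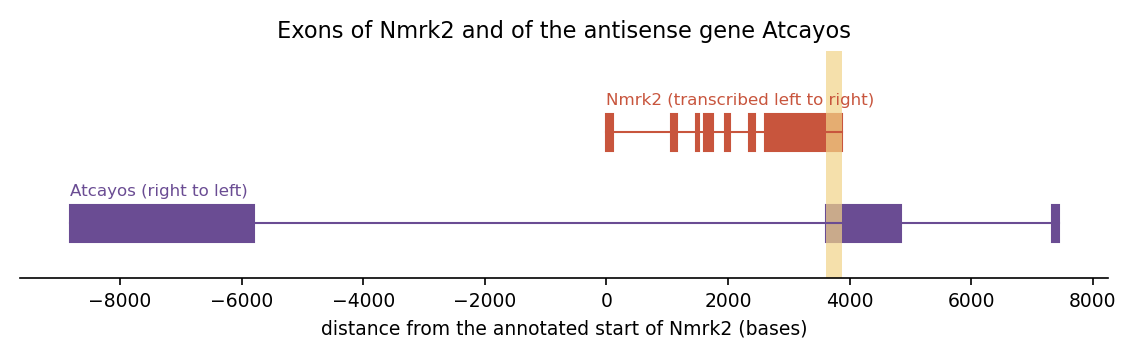
Exons (boxes) of Nmrk2 and of the antisense gene Atcayos, by distance in bases from the annotated start of Nmrk2; the shaded band marks the 270 bases that exons of both genes cover. The band lies at the 3′ end of Nmrk2 and takes 14.6% of its exonic bases.

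One further listed gene lay within 500000 bases of Nmrk2, Lingo3, a leucine-rich repeat membrane protein, which had 80.4, 111 and 108 normalized reads in sham and 19.2, 22.8 and 32.8 in PAB replicates 1 to 3 (log2 fold change -1.98, SE 0.33, limma adjusted p = 0.000822). The neighbours of Nmrk2 in the table were thus both lower in PAB, as were 327 of the 617 listed genes. No listed gene lay that close to Art1. Exons of Art1 overlap those of Chrna10, on the opposite strand, by 1025 bases or 36.5% of its exonic bases, so reads there may belong to either gene in the same way. The transcript of Art1 that codes for protein shares 0 bases with Chrna10 and 0 with Art5, a related transferase gene whose span overlaps that of Art1. Values of Chrna10 and Art5 were not analysed here.

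Of a list of 68 other gene symbols of NAD synthesis, supply and use, 1 was in the table. Of the 16 symbols for synthesis, the 11 for ADP-ribosyltransferases and hydrolases, the 17 for ADP-ribosyl polymerases and the 7 sirtuins, 0 were in it, and nothing can be said of their levels here. The 1 listed was Slc29a2, an equilibrative nucleoside transporter. It had 365, 296 and 295 normalized reads in sham replicates 1 to 3 and 152, 128 and 190 in PAB replicates 1 to 3, and fell by 1.03 on the log2 scale (SE 0.25, limma adjusted p = 0.00367). Its groups did not overlap, as in 324 of the 327 genes that were lower in PAB. Its call was lost with median-ratio scaling, at -0.44 and an adjusted p of 0.105. Of a second list of 22 symbols for the laminin receptor that both proteins are known to touch, 0 were in the table.

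Of 64 marker symbols for the cell types that an RV sample could hold, 8 were in the table, 2 higher and 6 lower in PAB. The higher ones were Nppa, the atrial natriuretic peptide, at 192 to 238 normalized reads in sham and 4995 to 21964 in PAB, and Cnn1, a calponin of smooth muscle, at 106 to 122 and 289 to 681. Nppa was highest in PAB replicate 1 and lowest in replicate 3, an order that Nmrk2 did not share. Among the lower ones, 2 of the 16 skeletal muscle symbols were listed, Myl1 and Tnni2, and their summed level was 314 to 407 in sham and 103 to 204 in PAB. Other genes of skeletal muscle that are not on that list, named after their values were seen, went both ways. Among those higher in PAB were Acta1 (above), Casq1, a calcium-binding protein of the sarcoplasmic reticulum (mean 210.3 normalized reads in sham, 704.8 in PAB), and Myoz1, a Z-disc protein (24.8 and 74.7). Among those lower in PAB were Tnnt1, a troponin T of slow skeletal muscle (531.6 and 261.5), and Scn4a, a sodium channel subunit (71.8 and 21.6). Pln, the phospholamban of ventricular muscle and 1 of 9 symbols of that type, stood at 21385 to 27039 in sham and 9037 to 12438 in PAB, and its call was lost with median-ratio scaling (log2 fold change -0.56, limma adjusted p = 0.119). Dpt of fibroblasts (4649 to 4759 in sham, 1487 to 2511 in PAB), C1qa of macrophages (643 to 700, 271 to 347) and Dbh of the sympathetic lineage (99.6 to 151, 5.95 to 13.9) were also lower, each the 1 listed symbol of its type. With median-ratio scaling the call of Dpt was lost (-0.61, limma adjusted p = 0.0572) and that of C1qa held narrowly (-0.52, limma adjusted p = 0.0485). None of the endothelial or erythroid symbols was listed. Of the ventricular muscle symbols on the list, Pln alone was in the table, and it was abundant in all 6 libraries. The part of cell makeup in the levels of Nmrk2 and Art1 was not tested.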

How the data were processed

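RNA of 3 sham and 3 PAB RV samples was sequenced after library preparation with a NEBNext Ultra kit. The submitters' processing notes name HISAT2 2.0.5, StringTie 1.3.3b, featureCounts 1.5.0-p3, GATK 3.7 and the mm10 (GRCm38) build, and the authors compared groups with DESeq2. The deposited values are named FPKM by the authors but are a signal of another kind: every value was a whole multiple of 1 step per library (tolerance 0.001 of a step) whatever the gene length, so they are read counts divided by a size factor. The deposited table also holds the authors' own log2 fold changes and p-values, which were not used. The design assumed FPKM; the same test was kept.

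Values were put on log2(value + 1), with a minimum mean of 0.1 that removed 0 genes, and fitted over all 617 genes with limma 3.58.1 in R 4.3.3 (two-sided, Benjamini-Hochberg adjustment; lmFit, then eBayes with trend). Precision is limited by 3 libraries per group, and the total depth is unknown. Members and lists were chosen with earlier results of these data known. Named genes are the members, the 5 nearest genes of each, listed genes of the NAD, laminin receptor and marker lists, and those within 500000 bases. Of 616 genes with coordinates, 615 were found by Ensembl ID in GENCODE M21; shared stretches were found with blastn 2.17.0. Both members were found in the RefSeq promoter table. On simulated data for 617 genes, a log2 fold of 2 was put into 200 of them, with a dispersion of 0.05 in both groups. The fit recovered 98.5% of these 200 and called 5.28% of the others at an unadjusted p under 0.05. Unlike the simulated set, the deposited table holds only genes selected for a difference, so these shares are not error rates for its calls. Alternatives were another pseudocount, other filters, median-ratio scaling, no trend, a replicate block and leaving out each library. Python 3.11.15, numpy 2.4.6, pandas 2.3.3, scipy 1.17.1 and matplotlib 3.10.9 were used.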

Additional observations from a re-analysis of the deposited data

How the results depend on the processing

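Nmrk2 stayed higher and Art1 lower in PAB under every alternative run. With median-ratio scaling over the listed genes the log2 fold change was 4.39 for Nmrk2 and -2.51 for Art1, 188 genes in place of 327 were called lower, and 0 in place of 1 of the NAD list. That scaling takes its centre from genes selected for a difference. Leaving out 1 library gave 3.62 to 3.99 for Nmrk2 and -3.29 to -2.89 for Art1, and kept 5 to 9 of the 10 nearest genes, with 5 kept without sham replicate 2 and 6 kept without PAB replicate 1, 2 or 3; the cause was not tested. Replicate numbers are only shared numbers: deviations of same-numbered libraries correlated at -0.059, -0.055 and -0.20, and 0 of the 3 sham libraries were closest to their own number. With the replicate block the log2 fold change was 3.80 (SE 0.25) for Nmrk2 and -3.10 (SE 0.34) for Art1, and 289 in place of 290 genes were called higher. The edgeR and DESeq2 alternatives, planned for the case that whole reads could be recovered, were not run: every value was a whole multiple of a step, but 81 to 101 values per library lay within 20 steps, and the check of recovered reads needs 100 in each. The depth limits the PAB values of Art1, which rest on 23 to 44 reads.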

Other observations

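Descriptions in the table were searched for words of the pathways around the members after the values had been seen. NAD occurred in 2 further genes, Ndufa1 and Ndufs6, subunits of the NADH dehydrogenase of mitochondria, which is respiratory complex I. Ndufa1 had 3044, 2731 and 2186 normalized reads in sham replicates 1 to 3 and 953, 1080 and 1684 in PAB replicates 1 to 3. Ndufs6 had 3533, 3054 and 1932 in sham and 1075, 1318 and 1731 in PAB. Both were lower in PAB, by a log2 fold change of -1.13 (SE 0.27) and -1.03 (SE 0.29), without overlap, as in 324 of the 327 genes lower in PAB. Sham replicate 3 was the lowest sham library for both, as it was for Nmrk2 and Art1. The same held for 136 of the 327 lower genes and 65 of the 290 higher ones. The calls of Ndufa1 and Ndufs6 were lost with median-ratio scaling, at -0.54 and -0.43.

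The word integrin occurred in 4 genes, 2 higher and 2 lower in PAB. Itgbl1, a protein with integrin-like repeats, had 54.9, 72.0 and 95.4 normalized reads in sham replicates 1 to 3 and 365, 195 and 111 in PAB replicates 1 to 3, a log2 fold change of 1.45 (SE 0.41). Itgb6, a beta subunit of epithelial cells, had 163, 208 and 156 normalized reads in sham and 28.8, 25.8 and 60.6 in PAB replicates 1 to 3, and Itgb7, a beta subunit of lymphocytes, had 12.3, 34.6 and 29.4 and then 4.26, 10.9 and 2.98. The call of Itgb7 was lost with median-ratio scaling, at -1.41 and a limma adjusted p of 0.0608. Itga11, a collagen-binding alpha subunit, had 26.5, 29.0 and 29.4 in sham and 202, 55.5 and 31.8 in PAB, a log2 fold change of 1.30 with a limma adjusted p of 0.0432, and 0.56 without PAB replicate 1. That call was lost without any 1 library other than PAB replicate 3, at limma adjusted p-values of 0.0598 to 0.189, and without the trend, at 0.0639.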
